A study of Mus musculus with 18 samples.

Results

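Endophilin A2 loss was examined in transitional B cells, the immature B cells that have recently reached the spleen, by comparing the 3 Sh3gl1-/- transitional libraries with the 3 WT transitional libraries. These 6 of 18 libraries, chosen by the cell type and genotype in their labels, come from an RNA sequencing series that also holds follicular B cells taken directly ex vivo and follicular B cells cultured with CD40L for 14 h. All mice were C57BL/6, and the series describes 3 biological replicates from littermates for each group. The transitional cells of both genotypes were untreated and were sorted by flow cytometry. The Sh3gl1-/- mice lacked the gene in every cell of the body, and both genotypes were otherwise unmanipulated, so a change in these cells can arise in the B cell or in its surroundings. Neither the age and sex of the mice nor pooling of animals within a library is given for these samples. In the study's flow cytometry, transitional cells were splenic B220+CD93+ cells, whereas the methods of the RNA experiment describe the sort of follicular cells only.

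Endophilin A2 is a membrane-bending protein with a BAR domain, which shapes tubules, and an SH3 domain, which binds dynamin, and it drives a fast, clathrin-independent route of receptor internalization. Transitional B cells leave the bone marrow, pass selection on the strength of their B-cell receptor (BCR) signal and depend on the survival factor BAFF as they become follicular or marginal zone B cells. Most of them do not divide, but they derive from rapidly cycling precursors.

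The 6 libraries held between 12404665 and 16514781 counts, of which the 10 most abundant genes took between 11.7% and 13.8%. Any pair of replicates differed by more than sampling noise (chi-square per degree of freedom from 14.28 to 30.19). Each library was counted as 1 sample, although separately prepared libraries of 1 mouse could also differ by more than this noise. Cd93, the receptor that marks transitional cells, had 64.7, 72.7 and 57.4 CPM (counts scaled to library size, here over all 18 libraries) in WT and 83.1, 85.8 and 57.8 CPM in Sh3gl1-/- transitional replicates 1 to 3, against 11.8, 14.4 and 12.4 CPM in the 3 follicular WT libraries. In the 3 follicular Sh3gl1-/- libraries Cd93 was at 26.2, 22.4 and 14.4 CPM, so by this marker the label matched in all 6 transitional libraries. Vpreb3, Myb and Sox4 were also higher in each of the 6 than in each follicular WT library. Cd24a was not: Sh3gl1-/- transitional libraries had 191, 246 and 163 CPM, and follicular WT libraries 198, 207 and 173 CPM. None of 9 markers of the B lineage passed the test, with Cd79a and Ms4a1 at log2 fold changes of -0.24 and -0.46. Xist, transcribed from the inactive X chromosome, was at 437 CPM in WT replicate 3, at 462 CPM in Sh3gl1-/- replicate 2 and at 6.66 CPM or less in the other 4, and the Y-linked Ddx3y was at 0 and 1.04 CPM in the same pair of libraries, so that 1 of 3 libraries of each genotype had this pattern.

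Sh3gl1, the gene of endophilin A2 (ENSMUSG00000003200, GRCm38 chromosome 17, 56016750 to 56036635, minus strand), had 591, 467 and 377 counts in WT and 7, 4 and 11 counts in Sh3gl1-/- transitional cells. On the CPM scale this was 35.7 ± 5.48 (SD, n = 3) against 0.495 ± 0.28 (SD, n = 3), or -6.18 in log2 fold change with SE 0.29 and an adjusted p of 3.82e-05 in edgeR's quasi-likelihood test. Sh3gl2 and Sh3gl3, which encode the other endophilin A proteins, had 0 counts in all 6 libraries, which at a floor of 3 counts allows at most 0.182 to 0.242 CPM (counting error only). The neighbors of Sh3gl1 also differed. Mpnd, whose annotated end overlaps that of Sh3gl1 on the opposite strand, had 14.8, 8.7 and 10.4 CPM in WT and 0.12, 0.718 and 0.732 CPM in Sh3gl1-/- cells (log2 fold change -4.45, SE 0.48, adjusted p = 0.0056, edgeR). Stap2, a signaling adaptor 11.2 kb away, had 0.14, 0.378 and 0 CPM in WT and 5.86, 8.55 and 5.27 CPM in Sh3gl1-/- cells (log2 fold change 5.16, SE 0.61, adjusted p = 0.0083, edgeR). Neither gene overlapped between the genotypes, which the rule for naming leading genes already required.

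Within 5 Mb of Sh3gl1, 16 of 67 tested genes were called (23.9%), 8 higher and 8 lower. Farther out, 3 of 63 genes were called between 5 and 10 Mb (4.76%) and 5 of 91 between 10 and 20 Mb (5.49%). Between 20 and 30 Mb 16 of 266 were (6.02%), and between 30 and 60 Mb 4 of 190 (2.11%). Called genes named below from these stretches include Mocs1 (5 to 10 Mb), Hsp90ab1 (10 to 20 Mb), and Tubb5 and Tap2 (20 to 30 Mb). A call means an adjusted p under 0.05 in edgeR, and over all 13774 genes tested 514 were called (3.73%). The called genes of the window included Satb1, a chromatin organizer (log2 fold change 0.79), with 5 predicted transcripts around it that were also higher, Safb (0.45) and, among the lower genes, Sgo1 (-1.64), Chaf1a (-2.05), Uhrf1 (-0.91), Gtf2f1 (-0.55) and Trip10 (-1.74). A further transcript inside Satb1, C230085N15Rik, was lower (-1.07) and not higher like its neighbors. When 1 library was left out, Safb and Chaf1a were called in 0 of 6 fits and Uhrf1, Trip10 and C230085N15Rik in 1. Sgo1 acts in mitosis and Chaf1a and Uhrf1 in DNA replication, so they share functions with the groups described next as well as lying in this region. Chaf1a and Uhrf1 are members of the replication list, whereas Sgo1 is in neither the mitosis nor the replication list. For genes linked to the targeted allele, the loss of endophilin A2 and inherited sequence next to it cannot be told apart.

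**Figure D1:**
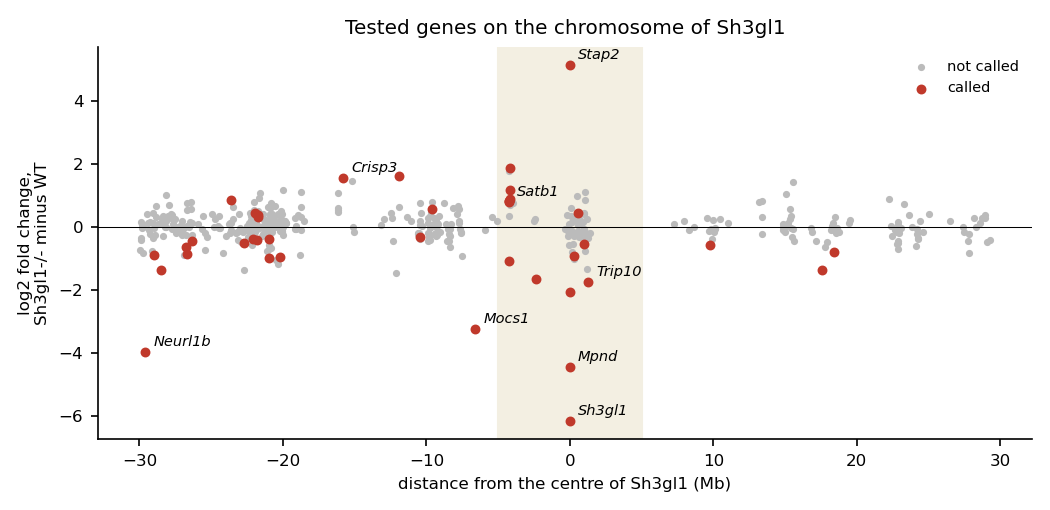
Log2 fold change (Sh3gl1-/- minus WT transitional cells, vertical axis) of each tested gene on chromosome 17 against its distance in Mb from the center of Sh3gl1 (horizontal axis), with called genes in red and the shaded band marking 5 Mb to each side. The 16 called genes within the band include Sh3gl1 and Mpnd at the bottom and Stap2 at the top.

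Across the transcriptome, 173 genes were higher (1.26% of those tested) and 341 were lower (2.48%) in Sh3gl1-/- transitional cells, while the median log2 fold change over all genes was 0.02. The 3 CPM values of the genotypes did not overlap for 513 of the 514 called genes, the exception being the predicted gene Gm15459 (called in 1 of the 6 fits that left out 1 library), and for 27.9% of all genes tested. Changes of more than 2-fold were seen for 61 of the higher and 81 of the lower genes. The lower genes were led by the scavenger receptor Cd36, the molybdenum cofactor gene Mocs1, the condensin subunit Ncaph, the ribonucleotide reductase subunit Rrm2 and the mitotic kinesin Kif20a. The higher genes were led by Hivep3, Sv2b, Klra1, Chka and Dennd5b. The number of calls rested on single libraries: it was 216 without WT replicate 1, 51 without WT replicate 2, 284 without WT replicate 3, 56 without Sh3gl1-/- replicate 1, 479 without Sh3gl1-/- replicate 2 and 28 without Sh3gl1-/- replicate 3. With 3 libraries a group, an exact permutation test of a single gene cannot give p below 0.1, so tests rest on the fit across all genes. The number of these 6 fits in which a gene was called is given beside the genes described in full, and for calls that held in 1 fit or none. In a fit of all 18 libraries, which share 1 estimate of the spread, 144 genes were called, 75 higher (0.496% of those tested) and 69 lower (0.456%), so the excess of lower genes was not seen there.

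**Figure D2:**
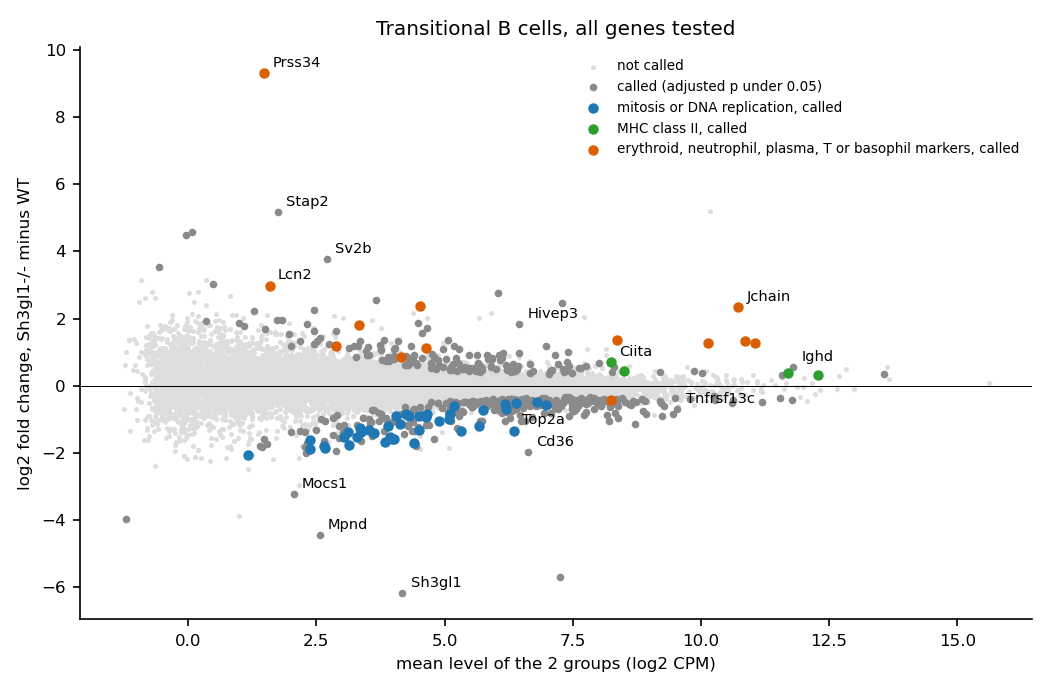
Log2 fold change (Sh3gl1-/- minus WT, vertical axis) of the 13774 genes tested against their mean level in log2 CPM (horizontal axis), with called genes in dark gray and called members of 3 kinds of gene list in color. Mitosis and replication genes lie below 0, MHC class II genes lie a little above it, and the called markers of erythroid cells, neutrophils, plasma cells, T cells and basophils lie above it except Mzb1.

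Genes of mitosis were lower. Of 44 mitosis genes tested, 27 were called lower (61.4%, against 2.48% of all genes tested) and 0 higher, with a median log2 fold change of -1.24. Top2a, the topoisomerase that untangles chromosomes before they separate, was at 85.6, 137 and 128 CPM in WT and at 48.1, 39.1 and 51.3 CPM in Sh3gl1-/- cells (log2 fold change -1.34, SE 0.18, adjusted p = 0.0093, edgeR; called in 5 of 6 fits). Cdk1, the kinase that starts mitosis, was at 14.6, 17.4 and 17.6 CPM in WT and at 6.52, 5.74 and 7.4 CPM in Sh3gl1-/- cells (-1.33, SE 0.18, adjusted p = 0.01, edgeR; 4 of 6 fits). Every Sh3gl1-/- value of both genes lay below every WT value, as for 14.3% of all genes tested. Ncaph, a subunit of the condensin complex that compacts chromosomes, fell by 1.32 on the log2 scale and was called in 6 of 6 fits, and its partner Ncapd2 fell by 0.85.

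The kinesins of the spindle fell together: Kif4 (log2 fold change -1.89), Kif2c (-1.85), Kif11 (-1.71), Kif23 (-1.68), Kif20a (-1.54) and, outside the list, Kif22 (-1.16), of which Kif20a and Kif22 were called in 6 of 6 fits. The spindle kinase Plk1 (-1.77), the spindle assembly factor Tpx2 (-1.60), the kinetochore subunit Nuf2 (-1.54), cyclins Ccnb1 (-0.91) and Ccnb2 (-1.27), and the proliferation antigen Mki67 (-1.35) were also lower. Of these, Ccnb1 and Mki67 were called in 1 of 6 fits and the others in 2 to 4. Tubb5, a beta tubulin used by dividing and resting cells alike, was at 468, 388 and 462 CPM in WT and at 233, 200 and 246 CPM in Sh3gl1-/- cells (-0.96, SE 0.11, adjusted p = 0.0077, edgeR; 6 of 6 fits). The kinetochore genes Ndc80 (-0.31), Mad2l1 (-0.21) and Knl1 (0.07) did not pass the test. Summed over the list, WT libraries held 799, 1107 and 1075 CPM and Sh3gl1-/- libraries 535, 468 and 513 CPM, without overlap. The number of members called was 26 without WT replicate 1 or Sh3gl1-/- replicate 2, 19 without WT replicate 3, 11 without Sh3gl1-/- replicate 1, 6 without WT replicate 2 and 4 without Sh3gl1-/- replicate 3, while the median stayed between -1.02 and -1.35 in these 6 fits. In the fit of all 18 libraries 2 members were called, Kif11 and Plk1, at a median of -1.24, and Top2a, Cdk1, Ncaph and Kif20a were not.

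The promoters of these genes are shown because they fell together and because their short sequence elements are known. The cell cycle homology region (CHR, TTTGAA) with nearby CCAAT boxes marks many genes of late cell cycle, and E2F sites (TTTCCCGC or TTTGGCGC) mark many genes of DNA replication. Both strands were searched from 250 bases before to 50 bases after the start of each gene (RefSeq, GRCm38.p6), and matches are in capitals, with no overlap between different motifs. Top2a (chr11:99024140-99024439, minus strand), Cdk1 (chr10:69352863-69353162, minus strand) and Ncapd2 (chr6:125191537-125191836, minus strand) are from mitosis, and Mcm5 (chr8:75109259-75109558, plus strand) is from replication.
Top2a: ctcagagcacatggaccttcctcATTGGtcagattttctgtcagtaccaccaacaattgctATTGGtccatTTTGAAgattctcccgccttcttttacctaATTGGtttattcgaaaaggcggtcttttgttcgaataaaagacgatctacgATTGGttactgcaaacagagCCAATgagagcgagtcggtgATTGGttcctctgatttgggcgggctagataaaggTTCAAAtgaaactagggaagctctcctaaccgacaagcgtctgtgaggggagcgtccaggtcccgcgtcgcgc
Cdk1: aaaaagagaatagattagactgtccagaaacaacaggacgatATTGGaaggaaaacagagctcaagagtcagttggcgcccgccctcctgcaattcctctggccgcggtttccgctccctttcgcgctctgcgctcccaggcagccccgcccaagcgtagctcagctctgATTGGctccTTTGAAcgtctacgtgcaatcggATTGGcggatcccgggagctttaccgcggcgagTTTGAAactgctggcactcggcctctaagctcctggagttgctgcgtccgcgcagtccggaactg
Ncapd2: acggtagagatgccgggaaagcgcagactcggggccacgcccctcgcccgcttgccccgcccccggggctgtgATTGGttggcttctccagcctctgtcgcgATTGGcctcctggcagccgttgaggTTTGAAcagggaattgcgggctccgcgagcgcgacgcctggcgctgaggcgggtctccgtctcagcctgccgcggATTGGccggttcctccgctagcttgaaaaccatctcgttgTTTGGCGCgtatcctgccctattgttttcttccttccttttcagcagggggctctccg
Mcm5: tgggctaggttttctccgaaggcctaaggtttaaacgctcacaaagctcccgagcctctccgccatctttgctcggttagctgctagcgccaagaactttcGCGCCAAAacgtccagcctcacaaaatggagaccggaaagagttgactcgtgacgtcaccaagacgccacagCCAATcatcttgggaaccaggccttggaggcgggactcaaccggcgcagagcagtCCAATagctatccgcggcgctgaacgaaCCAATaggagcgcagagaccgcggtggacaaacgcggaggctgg
The window held 2 CHR and 6 CCAAT matches for Top2a, 2 and 3 for Cdk1, 1 and 3 for Ncapd2 and 0 and 3 for Mcm5, while Ncapd2 and Mcm5 each had 1 E2F match. The windows of the replication genes Rrm2 (1 CCAAT match) and Lig1 (no match to any of the motifs) had no E2F match. A CHR match was found in 28 of 37 mitosis promoters (75.7%), 4 of 33 replication promoters (12.1%) and 4893 of 27025 promoters in all (18.1%). For CCAAT the counts were 27 of 37 (73%), 19 of 33 (57.6%) and 10248 of 27025 (37.9%), and for E2F they were 2 of 37 (5.41%), 10 of 33 (30.3%) and 441 of 27025 (1.63%). A match describes the letters of the window and not binding.

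Genes of DNA replication were lower to a smaller degree. Of 39 tested, 13 were called lower (33.3%, against 2.48% of all genes tested) and 0 higher, and the median log2 fold change was -0.48. Rrm2, the regulated subunit of the enzyme that makes deoxynucleotides, was at 63, 72.8 and 79.2 CPM in WT and at 32.6, 27.6 and 32.6 CPM in Sh3gl1-/- cells (log2 fold change -1.21, SE 0.12, adjusted p = 0.0039, edgeR; 6 of 6 fits), and its partner Rrm1 fell by 0.58. Lig1, which joins Okazaki fragments, was at 36.6, 42.5 and 41.7 CPM in WT and at 19.5, 15.9 and 23 CPM in Sh3gl1-/- cells (-1.05, SE 0.15, adjusted p = 0.012, edgeR; 4 of 6 fits). Neither gene overlapped between genotypes, which for Rrm2 the rule for naming leading genes already required. Of all genes tested, 14.3% were lower without overlap. The replicative helicase contributed Mcm5 (-0.72), Mcm3 (-0.71), Mcm7 (-0.55) and Mcm4 (-0.51), together with the loading factor Mcm10 (-1.61) and, for nucleotide supply, Tyms (-0.83). The sliding clamp Pcna (-0.20), Rpa2 (-0.14) and the histone mRNA-binding Slbp (-0.09) did not pass the test. Members called numbered 9 without WT replicate 1, WT replicate 3 or Sh3gl1-/- replicate 2, 2 without Sh3gl1-/- replicate 3, and 1 without WT replicate 2 or Sh3gl1-/- replicate 1, and Mcm3 and Mcm4 were called in 1 of 6 fits. In the fit of all 18 libraries 0 members were called, Rrm2 and Lig1 included, at a median of -0.48.

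Of the G1 regulators, Ccnd2, the cyclin D of B cells, was the 1 called gene of 16, at 334, 428 and 426 CPM in WT and 164, 222 and 189 CPM in Sh3gl1-/- cells (log2 fold change -1.05, SE 0.14, adjusted p = 0.0093, edgeR; 5 of 6 fits). The CDK inhibitors did not pass the test, and 0 of 11 p53 targets and 0 of 21 replication-dependent histone genes were called. Together the mitosis and replication lists held 40 of the 341 lower genes (11.7%), and 301 lower genes lay outside them. In bulk RNA, fewer cells of a type and less RNA per cell cannot be told apart, so the counts do not say whether fewer transitional cells were cycling. The part of cycling cells in the other 301 genes was not tested.

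The same comparison in follicular cells did not show this decrease. Its 6 libraries are separate, although same-numbered ones may come from the same mice. Xist was high in the same replicates of follicular cells, WT replicate 3 (452 CPM) and Sh3gl1-/- replicate 2 (413 CPM). There, 115 of 13610 genes were called (0.845%), with 0 of 42 mitosis genes and 0 of 39 replication genes, at medians of 0.27 and 0.12. On a CPM scale common to the 18 libraries, the mitosis sum of WT cells was 778, 1097 and 1051 in transitional and 270, 282 and 281 in follicular replicates 1 to 3. In Sh3gl1-/- cells it was 526, 458 and 503 in transitional and 340, 315 and 323 in follicular replicates, so Sh3gl1-/- transitional cells lay between the WT transitional and the follicular libraries.

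The difference between the genotype effects was tested directly across the 12 ex vivo libraries, each taken as independent, and was called for 10 of 14580 genes (0.0686%), with 1992 at an unadjusted p under 0.05. The effect was more negative in transitional cells for 7 genes (0.048% of those tested), namely Cdk1 (difference in log2 fold change -1.78), Top2a (-1.71), Rrm2 (-1.54), Lig1 (-1.27), Mcm5 (-1.09), Ncapd2 (-1.03) and the microtubule polymerase Ckap5 (-0.80), each with a replication or mitosis role. It was more positive for 3 genes (0.0206%), the ATP-gated channel P2rx4 (0.84), the nuclear RNA Malat1 (0.41) and the predicted gene Gm15675 (0.75), at adjusted p values of 0.041 to 0.045 (edgeR). Top2a, for example, was at 83.4, 136 and 125 CPM in WT and 47.2, 38.3 and 50.4 CPM in Sh3gl1-/- transitional cells, and at 15, 17.9 and 14.6 CPM in WT and 22.6, 23.6 and 15.7 CPM in Sh3gl1-/- follicular cells. P2rx4 was at 38.2, 41.6 and 43.2 CPM in WT and 68.8, 67.4 and 79.3 CPM in Sh3gl1-/- transitional cells, and between 65 and 73 CPM in all 6 follicular libraries. Same-numbered transitional and follicular libraries of a genotype varied together (r from 0.31 to 0.64), and a fit with the replicate number as a block within genotype called 99 genes, 33 higher (0.226%) and 66 lower (0.453%), which included the same 10, with 13 of 44 mitosis and 7 of 39 replication genes more negative in transitional cells. Without the block, the number was 23 without transitional WT replicate 1, 16 without follicular WT replicate 3, 10 without transitional Sh3gl1-/- replicate 2 and 0 without any other of the 12 libraries, with 1480 to 2160 genes at an unadjusted p under 0.05 in edgeR.

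**Figure D3:**
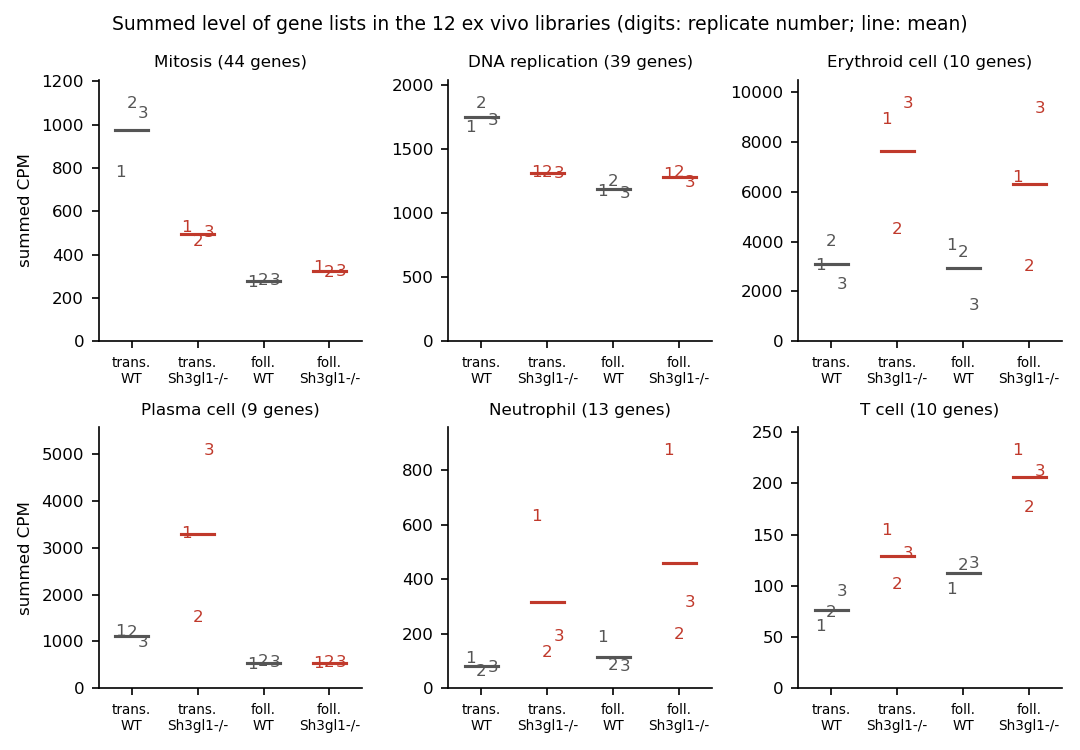
Summed level of 6 gene lists (vertical axis, CPM scaled over all 18 libraries) in the 12 ex vivo libraries, grouped by cell state and genotype, with digits giving the replicate and lines the group mean. Mitosis sums are 458 to 526 in Sh3gl1-/- against 778 to 1097 in WT transitional libraries and 270 to 340 in the follicular libraries, while erythroid, plasma cell, neutrophil and T cell sums are high in some Sh3gl1-/- libraries, with Sh3gl1-/- replicate 2 the lowest of its group in transitional cells.

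Several biosynthetic genes were lower as well, where 2.48% of all genes tested were called lower. In cholesterol synthesis, 4 of 18 genes were called lower (median log2 fold change -0.42), among them Hmgcs1, at 78.4, 80.2 and 75.4 CPM in WT and 43.4, 50.8 and 45.9 CPM in Sh3gl1-/- cells (log2 fold change -0.74, SE 0.10, adjusted p = 0.0093, edgeR; 5 of 6 fits), Idi1 (-0.75; 1 of 6 fits) and Sqle (-1.07; 2 of 6 fits). In glycolysis, 4 of 14 were called lower (median -0.19), namely the glucose transporter Slc2a1 (-0.57), Pfkl (-0.53), Pkm (-0.48) and Ldha (-0.44), each called in 3 or fewer of 6 fits. Phgdh, the entry enzyme of serine synthesis, was at 100, 133 and 109 CPM in WT and 65.1, 59.4 and 62.5 CPM in Sh3gl1-/- cells (-0.87, SE 0.11, adjusted p = 0.0093, edgeR; 5 of 6 fits), and was the 1 called gene of 15 in the list of serine synthesis and the ATF4 response.

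Ribosome assembly factors were lower for 3 of 25 genes (12%), Mybbp1a (log2 fold change -0.47), Nop2 (-0.43) and Nolc1 (-0.39), whereas 0 of 77 cytosolic and 0 of 78 mitochondrial ribosomal protein genes were called. The proteasome had 1 lower gene of 37 (2.7%, against 2.48% of all genes tested), Psmd2 (-0.54), and the heat shock list 1 of 7, Hsp90ab1 (-0.30). None of 82 nuclear genes of the respiratory chain was called (median 0.01), and of 13 genes of mitochondrial DNA 2 were higher, mt-Nd6 (0.44) and mt-Co1 (0.32). Gbp3, a guanylate-binding protein, was at 70.6, 66.5 and 79.5 CPM in WT and 32.5, 32.9 and 38.5 CPM in Sh3gl1-/- cells (-1.06, SE 0.11, adjusted p = 0.0056, edgeR; 6 of 6 fits), and with Gbp2 (-0.45) and Stat2 (-0.43) made up the 3 lower genes of 33 interferon-induced genes. Nop2, Nolc1 and Hsp90ab1 were called in 0 of 6 fits, and Gbp2, Stat2 and mt-Co1 in 1. Whether these genes follow the share of cycling cells was not tested.

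**Figure D4:**
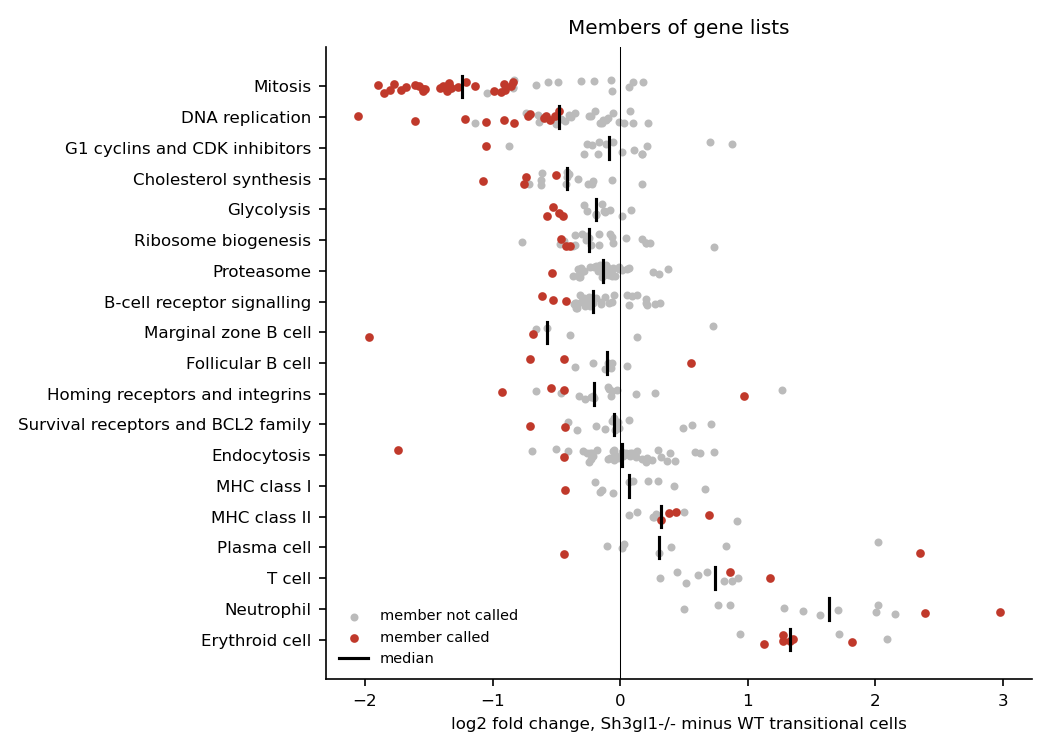
Log2 fold change (Sh3gl1-/- minus WT transitional cells, horizontal axis) of each tested member of 19 gene lists (rows), with called members in red, other members in gray and a bar at the median. The median lies farthest below 0 for mitosis (-1.24) and farthest above 0 for neutrophil (1.64) and erythroid (1.33) markers, and all 11 MHC class II genes lie above 0.

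Surface proteins of B-cell subsets changed in both directions. Cd36, a scavenger receptor of marginal zone B cells and macrophages, was at 131, 154 and 187 CPM in WT and 46.1, 43.1 and 31.2 CPM in Sh3gl1-/- cells (log2 fold change -1.97, SE 0.17, adjusted p = 0.0024, edgeR; 6 of 6 fits). Cd1d1, which presents lipid antigens, was at 252, 220 and 232 CPM in WT and 142, 162 and 133 CPM in Sh3gl1-/- cells (-0.69, SE 0.10, adjusted p = 0.013, edgeR; 4 of 6 fits). The genotypes did not overlap for either gene, which for Cd36 the rule for naming leading genes already required. They were the 2 called genes of 7 markers of marginal zone B cells (28.6%, where 2.48% of all genes tested were called lower, median -0.57), of which Cd9 (-0.57), S1pr3 (-0.66), Dtx1 (-0.39), Myof (0.13) and Asb2 (0.73) did not pass the test. None of 10 genes of the Notch pathway, which directs marginal zone fate, was called (median -0.03).

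Cd24a, the heat-stable antigen that is high on transitional cells, was at 317, 404 and 398 CPM in WT and 194, 251 and 166 CPM in Sh3gl1-/- cells (log2 fold change -0.87, SE 0.15, adjusted p = 0.026, edgeR; 2 of 6 fits). Vpreb3 (-0.53), Myb (-0.57) and Sox4 (0.88), other genes of immature B cells, and Cd93 itself (0.22) did not pass the test, so that 1 of 5 transitional markers was called, as were 0 of 3 tested markers of B-cell precursors and 0 of 6 of B-1 or age-associated B cells. Plac8, a small cysteine-rich protein, was at 499, 566 and 679 CPM in WT and 287, 278 and 227 CPM in Sh3gl1-/- cells (-1.14, SE 0.13, adjusted p = 0.0077, edgeR; 6 of 6 fits). Ighd, the constant region of IgD, which rises as B cells mature, was at 2719, 3423 and 2512 CPM in WT and 4296, 4134 and 4313 CPM in Sh3gl1-/- cells (0.56, SE 0.11, adjusted p = 0.03, edgeR; 2 of 6 fits). It was the 1 called gene of 11 constant regions, and Ighm was at a log2 fold change of 0.19 with overlapping libraries. Among 10 follicular markers, Ighd was higher, Tnfrsf13c and Cxcr5 were lower, and Fcer2a (-0.12), Ccr7 (-0.07) and S1pr1 (-0.09) did not pass the test.

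Tnfrsf13c, the BAFF receptor on which B-cell survival depends, was at 994, 900 and 869 CPM in WT and 512, 664 and 519 CPM in Sh3gl1-/- cells (log2 fold change -0.71, SE 0.11, adjusted p = 0.018, edgeR; 3 of 6 fits), without overlap. The proapoptotic Bid was the other called gene of 16 survival receptors and BCL2 family members (-0.43; 0 of 6 fits), while Tnfrsf13b (-0.12), Mcl1 (-0.07) and Cd40 (-0.05) did not pass the test. The 2 called genes were 12.5% of the list, where 2.48% of all genes tested were called lower. Of 33 genes of BCR signaling, 3 were lower (9.09%, median -0.21): the inhibitory Fc receptor Fcgr2b (-0.61), the ubiquitin ligase Cblb (-0.52) and the adaptor Pik3ap1 (-0.42), called in 1, 1 and 0 of 6 fits. Of 19 receptors of B-cell positioning, 4 were called (21.1%, against 3.73% of all genes tested), with Gpr183 (-0.92), the cannabinoid receptor Cnr2 (-0.54) and Cxcr5 (-0.44) lower and Ccr6 higher, the last at 60.7, 70.3 and 45.9 CPM in WT and 128, 89.4 and 129 CPM in Sh3gl1-/- cells (0.97, SE 0.18, adjusted p = 0.027, edgeR; 1 of 6 fits). The integrin genes Itga4 (-0.27) and Itgb7 (-0.06) did not pass the test, and 0 of 16 genes of NF-kB subunits, inhibitors and pathway regulators were called.

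Genes of MHC class II presentation were higher. All 11 tested had a positive log2 fold change (from 0.07 to 0.92, median 0.32), and 4 were called (36.4%, where 1.26% of all genes tested were called higher). Ciita, the transactivator of the class II genes, was at 221, 237 and 234 CPM in WT and 385, 344 and 395 CPM in Sh3gl1-/- cells (log2 fold change 0.70, SE 0.09, adjusted p = 0.0093, edgeR; 5 of 6 fits). H2-Eb1 (0.39), H2-Aa (0.32) and H2-Oa (0.44) were the others, called in 2, 1 and 1 of 6 fits, and all 3 lie 20 to 30 Mb from Sh3gl1 on chromosome 17. H2-Ab1 was at 7368, 4817 and 5807 CPM in WT and 8002, 8532 and 8979 CPM in Sh3gl1-/- cells (0.50, SE 0.13, adjusted p = 0.069, edgeR) and did not pass, although it was called in 1 of 6 fits. Of 11 MHC class I genes, the peptide transporter Tap2 was lower (-0.43; 1 of 6 fits), and B2m (0.22) and H2-K1 (0.10) did not pass the test. The number of class II genes called was 4 without WT replicate 1 or Sh3gl1-/- replicate 2, 1 without WT replicate 2 or 3 or Sh3gl1-/- replicate 1, and 0 without Sh3gl1-/- replicate 3, while the median stayed between 0.28 and 0.36.

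The other leading higher genes had varied roles. Hivep3, a zinc finger transcription factor, was at 34.9, 43.3 and 37.1 CPM in WT and 141, 141 and 131 CPM in Sh3gl1-/- cells (log2 fold change 1.84, SE 0.10, adjusted p = 8.95e-05, edgeR; 6 of 6 fits). Sv2b, a synaptic vesicle protein, was at 0.63, 1.21 and 0.807 CPM in WT and 13.2, 11.7 and 11.6 CPM in Sh3gl1-/- cells (3.78, SE 0.29, adjusted p = 0.00099, edgeR; 6 of 6 fits). Klra1, a lectin-like receptor of the Ly49 family, was at 20.6, 17.1 and 19.2 CPM in WT and 50.4, 41.6 and 53.3 CPM in Sh3gl1-/- cells (1.35, SE 0.13, adjusted p = 0.0039, edgeR; 6 of 6 fits). In all 3 genes each Sh3gl1-/- library exceeded each WT library, which the rule for naming leading genes already required. Klra1 has near-identical family members between which reads could be split. Chka, which starts phosphatidylcholine synthesis (0.95), the trafficking regulator Dennd5b (0.70), the ciliary gene Bbs9 (0.90), the sodium pump subunit Atp1b1 (1.09), the actin-related Actr3b (2.25) and the calponin Cnn3 (0.75) completed the leading group with P2rx4, Ciita and Stap2. The remaining leading lower gene, Csprs (-1.41), and Mocs1, at 6.72, 6.43 and 9.44 CPM in WT and 0.777, 0.848 and 0.732 CPM in Sh3gl1-/- cells (-3.24, SE 0.32, adjusted p = 0.0039, edgeR), were called in 6 of 6 fits.

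**Figure D5:**
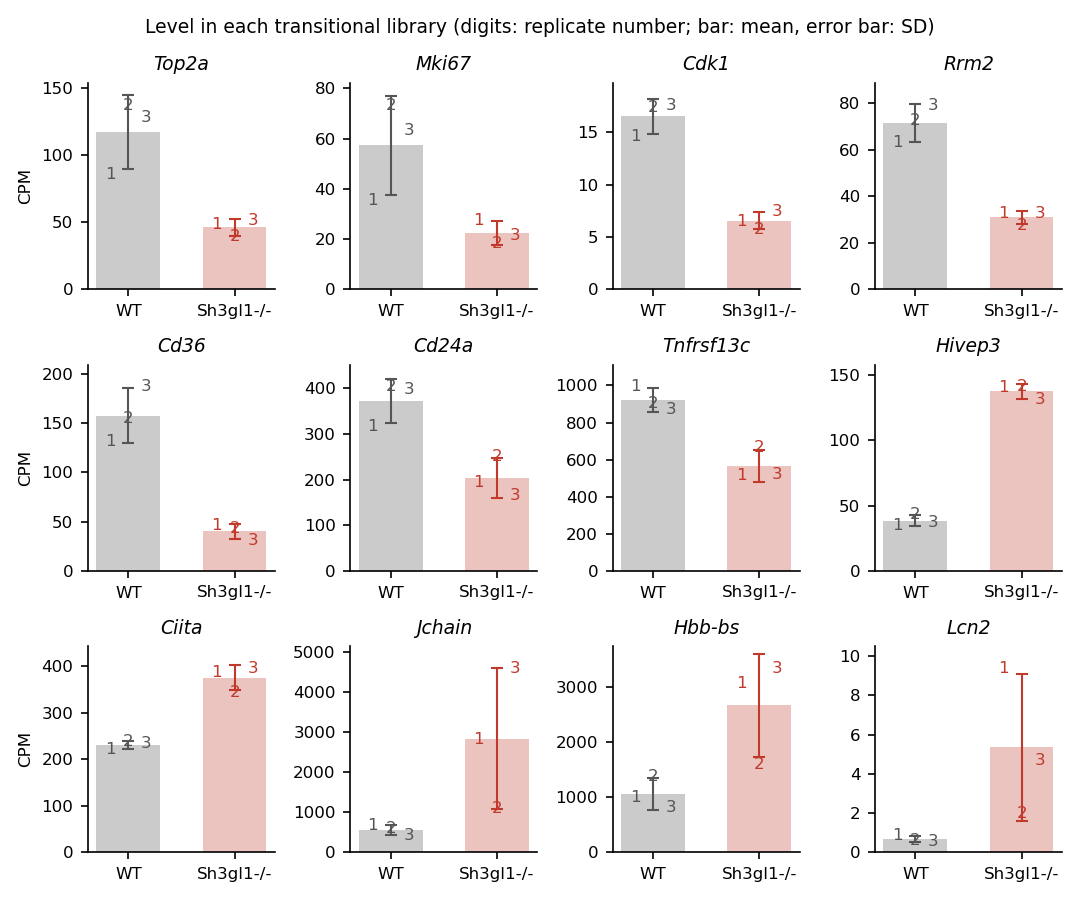
Level in CPM (vertical axis) of 12 genes in the 3 WT and 3 Sh3gl1-/- transitional libraries, with digits for the replicate, bars for the mean and error bars for the SD (n = 3). The genotypes are apart for all 12 genes, but Jchain, Hbb-bs and Lcn2 spread widely among Sh3gl1-/- libraries, with replicate 2 nearest to WT.

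Endocytosis genes changed little. Of 42 tested, 2 were called (4.76%, against 3.73% of all genes tested), and the median was 0.02. Both were lower, clathrin heavy chain Cltc (log2 fold change -0.44; 2 of 6 fits) and the F-BAR protein Trip10 (-1.74; 1 of 6 fits), which lies 1213 kb from Sh3gl1. The clathrin adaptor Ap2m1 was at -0.25 and the actin nucleator Actr3 at 0.08, and neither passed the test. Of 28 actin cytoskeleton genes 1 was called (3.57%), the membrane linker Msn, which was lower (-0.43). Of 39 lysosomal genes 2 were called (5.13%), Psap lower (-0.51) and the proton pump subunit Atp6v0a1 higher (0.49; 1 of 6 fits). Of 18 iron genes, ferritin heavy chain Fth1 was higher, at 95.4, 86.7 and 156 CPM in WT and 182, 246 and 251 CPM in Sh3gl1-/- cells (1.0, SE 0.21, adjusted p = 0.038, edgeR; 1 of 6 fits), and Fbxl5, the iron sensor that limits iron uptake, was lower (-0.71; 2 of 6 fits). The transferrin receptor Tfrc was at 68.1, 79 and 77.7 CPM in WT and 54.9, 70.8 and 62.8 CPM in Sh3gl1-/- cells (-0.25) with overlap and did not pass the test. Of 32 B-cell transcription factors 2 were called (6.25%), Hivep3 higher and Ikzf1 lower (-0.39; 1 of 6 fits). Of 18 immediate early genes 1 was called (5.56%), Jun, which was higher (1.69; 0 of 6 fits). Of 6 tested germinal center genes Rgs13 was higher (0.92), while 0 of 19 chaperones of the endoplasmic reticulum were called.

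Part of the higher genes were markers of other cell types. Across 11 lists of such markers, 12 of 74 genes tested were called higher, where 1.26% of all genes tested were. The 12 made up 6.94% of the 173 higher genes. In the same lists 2 genes were lower, Mzb1 (log2 fold change -0.44; 0 of 6 fits) and Pecam1 (-0.51; 2 of 6 fits), which B cells also express. Jchain, among the 12 higher genes, was present in WT libraries too. On the scale of all 18 libraries it was at 647, 589 and 406 CPM in WT transitional and 97.1, 99.9 and 44.6 CPM in WT follicular replicates. The lists of T cell, NK cell, neutrophil, monocyte or macrophage, conventional and plasmacytoid dendritic cell, erythroid, platelet, basophil or mast cell, endothelial or stromal and plasma cell markers are taken in turn, and none of their genes in the table had 0 counts in all 6 libraries. All 9 tested erythroid markers had a positive log2 fold change (median 1.33), and 6 were called, among them the globins Hbb-bs, Hbb-bt, Hba-a1 and Hba-a2 and the heme synthesis enzyme Alas2. Hbb-bs was at 994, 1372 and 814 CPM in WT and 3061, 1597 and 3337 CPM in Sh3gl1-/- cells (1.33, SE 0.27, adjusted p = 0.033, edgeR; 1 of 6 fits), and the other globins and Alas2 were also called in 1 fit. The erythroid sum was 3099, 4046 and 2339 CPM in WT and 9062, 4561 and 9729 CPM in Sh3gl1-/- libraries, without overlap. Adult globins with near-identical copies share reads, so the split between them is uncertain.

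Neutrophil markers had a median log2 fold change of 1.64, and 2 of 12 were called, Lcn2 (2.98) and Camp (2.39). Their sum was 113, 63.5 and 79.9 CPM in WT and 643, 134 and 193 CPM in Sh3gl1-/- libraries, and without Sh3gl1-/- replicate 1 the median was 0.51. All 10 T-cell markers were positive (median 0.75) and 2 were called, Lat (0.86) and Cd247 (1.18), with sums of 61.7, 74.4 and 96.5 CPM in WT and 157, 103 and 135 CPM in Sh3gl1-/- libraries. Prss34, a basophil protease, had 0 counts in every WT transitional library and 151, 13 and 93 counts in Sh3gl1-/- libraries, and was at least 24.6-fold higher against a floor of 3 counts per library (adjusted p = 0.031, edgeR). Lcn2, Camp, Lat, Cd247 and Prss34 were each called in 1 of 6 fits. Prss34 was not silent in other WT libraries, with 57, 1 and 22 counts in follicular WT replicates. Markers of NK cells (0 of 7 called, median 0.76), monocytes or macrophages (0 of 11, 0.27), conventional (0 of 5, 0.14) and plasmacytoid (0 of 4, 0.17) dendritic cells and platelets (0 of 3, -0.56) did not pass the test.

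Sh3gl1-/- replicate 2 had the lowest erythroid, neutrophil, T cell and plasma cell sums among the Sh3gl1-/- libraries, although each of these 4 sums was above all 3 WT libraries. Its conventional and plasmacytoid dendritic cell sums were also above them. Its NK cell (57 CPM, against up to 73.6 in WT) and basophil or mast cell sums (1.7, against up to 1.94) were within the WT range. Its monocyte or macrophage (665), platelet (2.02) and endothelial or stromal sums (295.5) were below all 3 WT libraries. Without Sh3gl1-/- replicate 2, 7 erythroid and 6 neutrophil markers were called, and in each of the other 5 fits that left out 1 library 0 erythroid and 0 neutrophil markers were. With Sh3gl1-/- replicate 2 as the only Sh3gl1-/- library, a comparison added after the data had been seen, 5 genes were called in all. The median was then 0.59 for erythroid, 0.67 for neutrophil and 0.38 for T-cell markers, with 0 members of any of them called. It was -1.40 for mitosis, -0.44 for replication and 0.30 for MHC class II genes, also with 0 members called. These are values of 1 library with no replicate. Whether admixed cells account for any of the other higher genes was not tested.

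Plasma cell markers and antibody genes varied widely between Sh3gl1-/- libraries. Jchain, the joining chain of secreted IgM and IgA, was at 664, 594 and 415 CPM in WT and 2831, 1090 and 4604 CPM in Sh3gl1-/- cells (log2 fold change 2.35, SE 0.42, adjusted p = 0.026, edgeR; 1 of 6 fits). It was the 1 higher gene of 9 plasma cell markers, and Mzb1 was the 1 lower gene (-0.44; 0 of 6 fits). Xbp1 (0.83), Irf4 (-0.10) and Slamf7 (0.01) did not pass the test, and the list's median turned from 0.31 to -0.18 with Sh3gl1-/- replicate 2 alone. Of 213 variable segments tested, 4 were higher (1.88%), near the 1.26% of all genes tested. They were Ighv11-2, Igkv14-126, Igkv7-33 and Igkv12-44, called in 1, 4, 3 and 1 of 6 fits. Igkv12-41 took 0.618% of all counts in Sh3gl1-/- replicate 3 (84194 counts, 95% exact Clopper-Pearson interval 0.613 to 0.622) and 0.0565% in replicate 1 (9338 counts), against 730 to 1003 counts in the WT libraries and 892 in Sh3gl1-/- replicate 2. Ighv1-26 had 11728 counts in Sh3gl1-/- replicate 3 and 959 to 1444 in the other 5 libraries. Igkc was at 10388, 10133 and 10192 CPM in WT and 14675, 10510 and 20006 CPM in Sh3gl1-/- cells and did not pass the test. Variable segments share sequence, and reads may be divided between them.

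Some of the changes were shared with follicular cells. Of the 172 higher genes that were tested there, 29 were also called higher, among them Hivep3, Klra1, Stap2, Bbs9, Atp1b1, Ighd, H2-Eb1, H2-Oa and Lat, and of 338 lower genes 20 were also called lower, among them Sh3gl1, Mpnd, Mocs1, Cd36, Csprs, Plac8, Cd24a and Gpr183. Each state was called against its own background, 0.485% higher and 0.36% lower in follicular cells, and 0 genes were called in opposite directions. In follicular cells the log2 fold changes were 2.38 for Hivep3, -1.19 for Cd36, -0.77 for Plac8 and -0.75 for Cd24a. The median follicular log2 fold change was 0.26 over the genes higher in transitional cells and -0.08 over those lower. Of the lists of other cell types, neutrophil (2.001), T-cell (0.835), monocyte or macrophage (0.842) and platelet markers (0.607) had follicular medians above their transitional ones. For erythroid, NK cell, basophil or mast cell and plasma cell markers the follicular median was positive but below the transitional one. For both dendritic cell lists and for endothelial or stromal markers it was negative. Only the T-cell list had members called in follicular cells (3 of 10, all higher).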

How the data were processed

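RNA of the 6 transitional libraries was sequenced as stranded poly(A) libraries per the labels, whereas the study's methods describe a SMART-Seq protocol, and which applies to these cells is not given in the sources used here. According to the submitters' processing notes, reads were processed with cutadapt 1.9.1, STAR 2.5.2a and RSEM 1.3.0 on GRCm38, while the methods name TopHat and Cufflinks. The deposited table held expected counts per gene estimated by the authors for 18 libraries; no column of another sample was left out (0). Deposited TPM and FPKM columns were not used. Of nonzero expected counts between 28.5% and 30.1% in the 6 libraries were not whole, and counts were rounded before use. Gene symbols were assigned by gene identifier from the GENCODE M21 annotation, which gave a symbol for 51719 of the 51912 genes.

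Genes were filtered with edgeR 4.0.16 (filterByExpr) in R 4.3.3, which left 13774 of 51912 genes, scaled by TMM and tested with the quasi-likelihood F-test, 3 against 3 libraries without further terms and with Benjamini-Hochberg adjustment over all genes tested. A prior count of 2 was used for log2 CPM values (permutation test and correlations between libraries), while fold changes kept edgeR's default. Follicular libraries were tested alike, and the difference between states as an interaction over 12 libraries. The replicates are called biological, but nothing says that each library is a separate mouse, so p-values measure only the spread between these libraries. The members and lists were chosen with earlier results of these data known. Named as leading genes were the 12 lowest adjusted p values per direction among called genes without overlap in CPM between the genotypes. The lack of overlap in leading genes therefore follows from the rule. Variable segments, predicted genes and pseudogenes were left out there (28 higher and 9 lower calls). Also named were up to 6 called and 3 other members per list, receptors and endophilin genes, called genes within 5 Mb of Sh3gl1 and cell type markers. Further called members of the mitosis and replication lists (Ccnb1, Ccnb2, Kif2c, Kif4, Plk1, Tpx2, Nuf2, Mki67, Ncapd2, Mcm3, Mcm4 and Mcm7), the genes of the interaction test and the variable segments were named after their values were seen. Alternatives were DESeq2 1.42.0, its size factors in edgeR, other filters on low counts, a replicate block, 18 libraries in 1 fit, and leaving out each library, the immunoglobulin segments or the region around Sh3gl1. Some members of the lists are counted but not reported here by name. Scripts were tested on simulated data.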

Additional observations from a re-analysis of the deposited data

Results flagged for a closer look

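The genotype effect differed between transitional and follicular cells, by the interaction term over the 12 ex vivo libraries (edgeR), for 10 genes. The difference in log2 fold change, transitional minus follicular, was -1.78 for Cdk1 (SE 0.29), -1.54 for Rrm2 (SE 0.22), -1.71 for Top2a (SE 0.27), -1.27 for Lig1 (SE 0.20), -1.03 for Ncapd2 (SE 0.17) and -0.80 for Ckap5 (SE 0.12), each at an adjusted p of 0.041, and -1.09 for Mcm5 (SE 0.18, adjusted p = 0.045). It was 0.84 for P2rx4 (SE 0.13), 0.75 for Gm15675 (SE 0.12) and 0.41 for Malat1 (SE 0.07), also at an adjusted p of 0.041. For Mcm5 the WT transitional libraries were at 55.3, 73.8 and 69.6 CPM and the Sh3gl1-/- ones at 38.7, 40.1 and 41.4 CPM, while WT follicular libraries were at 34.8, 36.5 and 36.1 CPM and Sh3gl1-/- ones at 37.9, 50.4 and 51.9 CPM. Malat1 was between 10190 and 10870 CPM in WT transitional libraries and between 12330 and 13840 CPM in the 9 other ex vivo libraries.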

How the results depend on the processing

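The 514 genes called in transitional cells became 1271 with DESeq2, 1426 without a filter on low counts, 144 with 18 libraries in 1 fit (75 higher and 69 lower, 131 of them shared with the 514) and 5 with Sh3gl1-/- replicate 2 alone, an alternative chosen after seeing the data, and ranged from 28 (without Sh3gl1-/- replicate 3) to 479 (without Sh3gl1-/- replicate 2) when 1 library was left out. The 115 calls in follicular cells became 345 with DESeq2, 602 without the filter and 49 with 18 libraries, and ranged from 32 to 112 with 1 library left out. The 10 differences between states became 340 with DESeq2 and 462 without the filter, and ranged from 0 to 23. The cause of these moves was not tested, except that fewer libraries or fewer degrees of freedom were available when libraries were left out. Scaling by DESeq2's size factors gave 519, 112 and 12 calls. The median over all genes stayed between -0.0028 and 0.0457 in every alternative.

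A replicate block gave 90 calls in transitional cells (83 shared, with 10 mitosis and 3 replication genes), 212 in follicular cells and 20 for the difference between states. Same-numbered WT and Sh3gl1-/- transitional libraries correlated at 0.201, -0.303 and -0.206, against at most 0.125, 0.286 and 0.445 with another number. With 3 libraries a group these values cannot tell whether the numbers mark a shared litter or day. A block within genotype, also added after seeing the data, gave 99 differences between states.

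Among the genes named with a fold change, signs turned only for those that did not pass the test. With Sh3gl1-/- replicate 2 alone the log2 fold change was 0.0261 for Cd40, -0.0178 for Ighm, -0.07 for Ighv1-26, -0.08 for Igkv12-41, 0.0541 for Irf4, -0.0474 for Knl1, 0.0144 for Mcl1, 0.0321 for S1pr1, -0.18 for Slamf7 and 0.0556 for Tnfrsf13b. Leaving out 1 library gave a range of -0.0278 to 0.2114 for Actr3, -0.0869 to 0.004 for Cd40, -0.0015 to 2.5239 for Ighv1-26, -0.2012 to 0.0882 for Itgb7, -0.104 to 0.1748 for Knl1, -0.1563 to 0.0327 for S1pr1 and -0.0407 to 0.1079 for Slamf7. Levels under 3 counts, or 0.182 to 0.242 CPM, were not resolved at this depth.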
